A study of Mus musculus with 6 samples.

Results

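The genes described here are the ion channel genes measured in the prospective lens of the mouse embryo. Their probes were chosen by gene symbol and by detection on the arrays. The platform annotation had to give a symbol beginning with Kcn (potassium channels), Scn (sodium channels), Cacn (calcium channels), Clcn (chloride channels and exchangers), Trpc, Trpm or Trpv (transient receptor potential channels). The detection p that the scanner software gives for brightness above negative control beads had to be under 0.05 on at least 3 of the 6 arrays. This left 43 genes with 62 probes, out of 146 channel genes with 286 probes on the array. The array holds 46632 probes in all, and 29976 of them carry a single gene symbol, for 17711 genes. Membership therefore rests on the measured signals, and the fact that these probes were above background is a description and not a finding. The symbols also took in 5 probes of 3 genes whose products are not channel subunits. These genes are Scnm1, a splicing factor, Trpc4ap, an adaptor of a ubiquitin ligase, and Kcnrg, a soluble regulator of potassium channels.

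Ion channels set the membrane potential, let calcium in as a signal and move ions between cell compartments. In the grown lens, which has no blood supply, potassium and chloride channels, connexin hemichannels and gap junctions, TRP channels and the sodium pump carry a circulation of ions and water. The placode is the thickened head ectoderm that will fold inwards to form the lens, and the transcription factor Pax6 is needed for it to form. Trpm3, a calcium-permeable TRP channel opened by heat and by the steroid pregnenolone sulfate, is known in humans as a gene whose mutation can cause cataract.

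The study compared 3 wild-type and 3 Pax6-/- embryos at E10.25 (embryonic days after mating), all on a mixed FVB and 129 background. Each array held RNA from 1 embryo, cut by laser from eosin-stained frozen sections of 10 microns and amplified from 15 ng. The wild-type tissue is labelled lens placode and the Pax6-/- tissue surface ectoderm, so genotype and the state of the tissue cannot be told apart. The labels do not describe the Pax6 allele. All 3 Pax6 probes read above background on the 6 arrays, with Pax6-/- minus wild-type differences of -0.52 ± 0.26 (SE), -0.99 ± 0.30 and -0.82 ± 0.25 on the log2 scale and no overlap between genotypes, while the adjusted limma p of the probes lay between 0.388 and 0.646. Every level below is a background-corrected, quantile-normalised log2 intensity, and every difference is Pax6-/- minus wild type on that scale. The lowest reading above background was between 5.11 and 5.27 on the different arrays. Between 35.0% and 40.2% of all probes were above background per array, and the precision of each comparison is limited by 3 arrays per genotype.

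The tissues were set against marker lists of the cell types they could hold. Of 8 lens markers 7 were measured, and their mean level was 8.46 to 8.86 on the wild-type arrays and 5.37 to 5.66 on the Pax6-/- arrays. Maf, Pitx3 and Foxe3 were above background on 0 Pax6-/- arrays, Prox1 and Crybb3 on 1 each, and Mip and Cryab on 2 each. Cryab read 9.60, 7.60 and 9.22 in wild type and 5.15, 7.78 and 7.65 in Pax6-/-, so its genotypes overlapped. Cryaa was not measured on either side. All 8 surface ectoderm markers were measured, at means of 8.30 to 8.77 in wild type and 8.68 to 9.18 in Pax6-/-. Their differences went both ways, with 3 of the 8 positive. Tfap2b differed by 1.61 and Epcam by -0.80, and Grhl3 by 1.88 with 0 wild-type arrays above background. Markers of other tissues had a higher mean in Pax6-/- for the optic cup and neuroectoderm (7 of 8 measured, means of 5.90 to 6.10 against 6.71 to 7.22), for red blood cells (5 of 8, 6.07 to 8.25 against 9.10 to 9.24) and for endothelium (4 of 7, 6.02 to 6.24 against 6.72 to 7.46). Of the 7 optic cup and neuroectoderm markers 5 had a positive difference, while Mitf differed by -0.31 and Nes by -0.36. The neuron list (5 of 10, 5.63 to 6.75 against 6.58 to 6.64) and the mesenchyme list (6 of 9, 6.55 to 7.23 against 6.71 to 7.39) overlapped between genotypes in their means. Within the mesenchyme list Pdgfra differed by -3.81, Twist2 by 1.86 and Prrx2 by 2.10, so its mean does not describe its members. Only Aif1 of 6 macrophage markers and Actc1 of 6 muscle markers were measured. The part of these lists in the differences of the channel probes was not tested, and in such dissected tissue fewer cells of a type and less RNA per cell cannot be told apart.

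Among the channel genes Trpm3, and with it Trpm1, is also known as the host of a microRNA gene, and both microRNAs lie inside their host on its strand. They are shown here because Trpm3 held the largest difference of the set, and its microRNA is known for roles in eye development. The mature sequences are from RefSeq (GRCm38.p6), at chr19:22750610-22750631 (plus strand) inside Trpm3 for the first and chr7:64205831-64205852 (plus strand) inside Trpm1 for the second. Capitals mark the seed, bases 2 to 8 from the 5′ end, through which a microRNA pairs with its targets.
mmu-miR-204-5p: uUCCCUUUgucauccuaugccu
mmu-miR-211-5p: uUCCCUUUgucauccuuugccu
Both are 22 bases long, share the seed UCCCUUU and differ at a single base, A17U, counted from the 5′ end with the base of miR-204 first. Neither microRNA was analysed here, so the values that follow are those of the host genes' own probes.

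Most channel probes of the array were not above background in this tissue. Of the 286 probes, 161 were above background on 0 arrays, 40 on 1 array and 23 on 2 arrays, which leaves 224 outside the set, and 103 genes had no kept probe at all. The filter kept 21.7% of channel probes, against 38.1% of all probes on the array. Of the kept probes, 33 (53.2%) were above background on all 6 arrays, against 60.4% of the 17751 probes of any gene that the same filter kept. The threshold cut through a continuous range: by the highest of their 3 lowest detection p-values, Clcn4 lay just inside at 0.0487, and Kcna1 just outside at 0.0536.

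**Figure D1:**
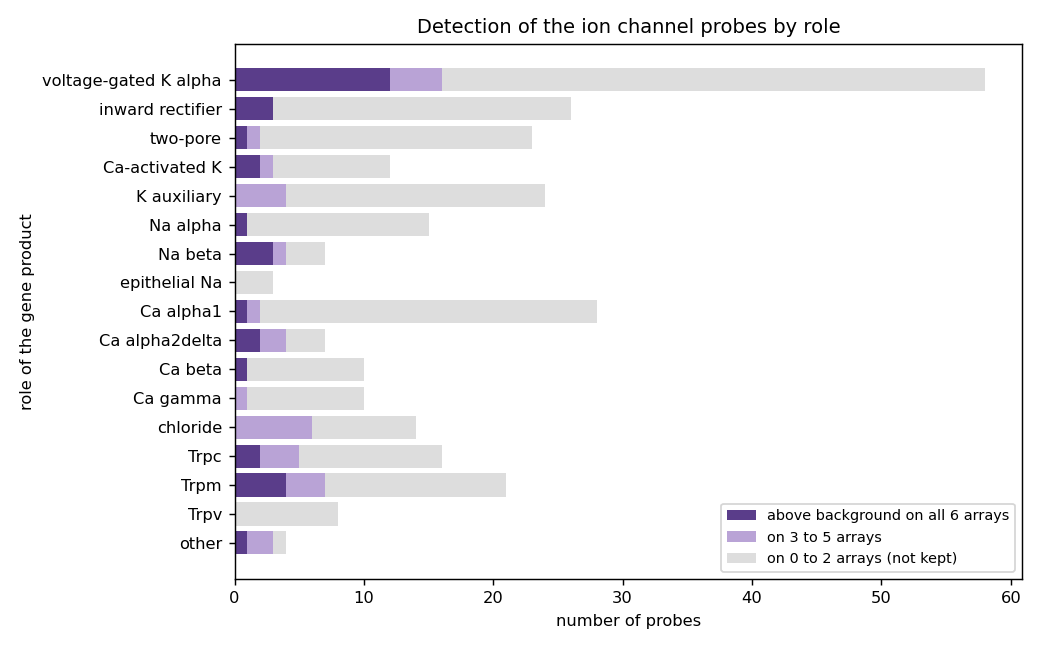
Number of probes on the array, kept by the detection filter, and above background on all 6 arrays, for each role of the gene product. Voltage-gated potassium channels gave 16 kept probes of 58, 12 of them above background on all 6 arrays, and the Trpv channels gave 0 of 8.

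The kept probes were spread unevenly over the roles, as the plot of detection by role shows. The pore-forming subunits of voltage-gated potassium channels, which repolarise excitable cells and hold the resting potential, gave 16 kept probes of 58. Sodium channels had 1 kept probe of 15 for the pore-forming alpha subunits (Scn2a) and 4 of 7 for the beta subunits, small membrane proteins that set channel gating and also act in cell adhesion. Calcium channels had 2 of 28 probes kept for the pore-forming alpha1 subunits and 4 of 7 for the extracellular alpha2delta subunits. Their beta and gamma subunits had only 1 of 10 each, and the potassium accessory subunits 4 of 24. A higher kept share was therefore not shared by all accessory subunits. The epithelial sodium channel gave 0 of 3. Of the Trpv channels, to which the calcium entry channels Trpv5 and Trpv6 and the osmosensitive Trpv4 belong, 7 of the 8 probes were above background on 0 arrays and the Trpv2 probe on 1.

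The Trpm channels held the largest difference between genotypes among the 62 probes, in Trpm3 on chromosome 19. They are cation channels with a large cytoplasmic amino terminus, and 7 of 21 probes were kept, for Trpm1, Trpm3 and Trpm7. Trpm3 has 5 probes on the array, and the 2 that were kept read lower on every Pax6-/- array than on any wild-type array.

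The Trpm3 probe ILMN_2462222 read 9.08, 9.55 and 8.80 in wild-type embryos 1 to 3 and 6.11, 5.10 and 7.26 in Pax6-/- embryos 1 to 3. All wild-type readings lay more than 1 log2 unit above the highest Pax6-/- reading, and the second Pax6-/- embryo was not above background. Means were 9.15 ± 0.38 (SD, n = 3) and 6.16 ± 1.08 (SD, n = 3), a difference of -2.99 ± 0.58 (SE) with a 95% interval of -4.40 to -1.57, or 7.93-fold. The unadjusted limma p was 0.00208 and the adjusted limma p 0.184, the lowest of all 62 probes, so the test over all probes did not call it.

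The Trpm3 probe ILMN_1247907 read 8.80, 9.44 and 9.05 in wild type and 8.32, 7.63 and 7.50 in Pax6-/-, above background on all 6 arrays. The genotypes did not overlap here either, although the first Pax6-/- embryo came within 1 log2 unit of the first wild-type embryo. Means were 9.10 ± 0.32 (SD, n = 3) and 7.82 ± 0.44 (SD, n = 3). The difference was -1.28 ± 0.33 (SE), with a 95% interval of -2.10 to -0.47, or 2.43-fold, and the adjusted limma p was 0.312.

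In the deposited signals, before any correction, the first of these probes went from 802, 901 and 391 in wild type to 108, 65.4 and 174 in Pax6-/-. The second went from 680, 844 and 460 to 313, 229 and 197. Both probes therefore kept the order of the genotypes before normalisation, and the third wild-type embryo gave the dimmest wild-type signal for each.

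The other 3 Trpm3 probes were too dim to be kept, so their values are given with no test. ILMN_2427909 read 7.06, 7.64 and 5.02 in wild type and 4.88, 5.25 and 5.04 in Pax6-/-. ILMN_2508109 read 5.28, 6.82 and 4.98 in wild type and 5.14, 4.90 and 4.92 in Pax6-/-. Each of these was above background in the first and second wild-type embryos and in no other embryo. ILMN_2574059 was above background on 0 arrays, between 4.90 and 5.13. Over the 5 probes, 10 wild-type readings and 5 Pax6-/- readings were above background. Readings of probes on the same transcript share an array and are not independent of each other.

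**Figure D2:**
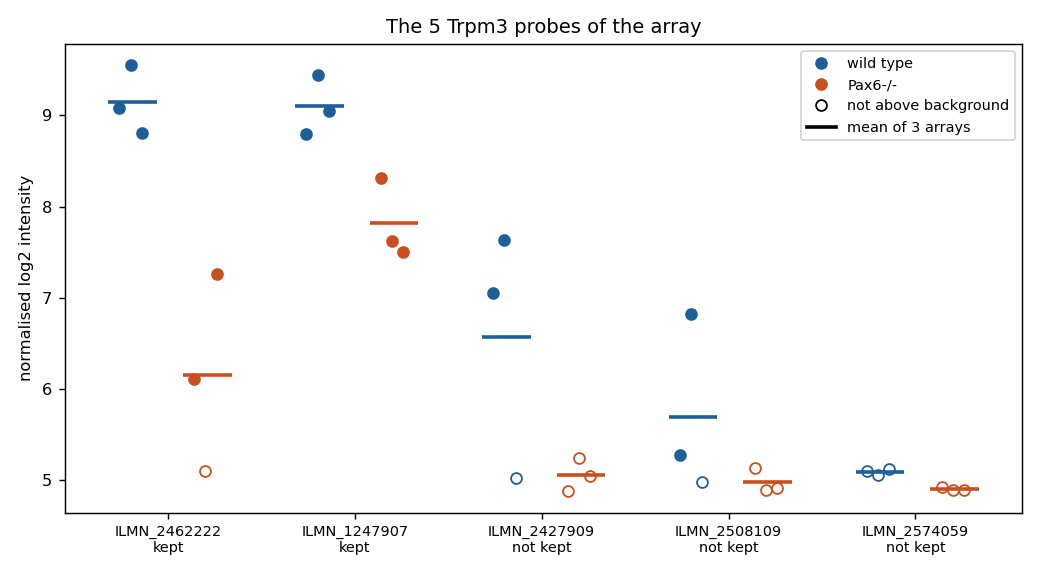
Normalised log2 intensity of the 5 Trpm3 probes on each array (points, 3 wild-type and 3 Pax6-/- embryos). For the kept probe ILMN_2462222 the wild-type points lie between 8.80 and 9.55 and the Pax6-/- points between 5.10 and 7.26, and ILMN_2574059 stays near 5 in both genotypes.

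Trpm1, the channel of melanocytes and of retinal ON bipolar cells that hosts the second microRNA, read slightly higher in Pax6-/- with both kept probes. ILMN_3163501 went from 5.16, 5.37 and 5.35 to 5.40, 5.64 and 5.51, with no overlap but a difference of only 0.22 ± 0.22 (SE). Its deposited signals did overlap, at 79.0, 85.7 and 70.2 in wild type and 82.9, 86.6 and 79.5 in Pax6-/-. The other Trpm1 probe read 5.42 to 6.67 over the 6 arrays and differed by 0.37 ± 0.36. Trpm7, a channel fused to a protein kinase and linked to magnesium balance, had 3 kept probes with differences of -0.09, -0.24 and -0.85. All of them were negative, and none exceeded 2 of its standard errors.

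The chloride family here consists of exchangers of endosomes and lysosomes, and it held differences in both directions. Clcn5, on the X chromosome, encodes an endosomal chloride and proton exchanger known for its role in kidney protein uptake. Its probe read 6.50, 7.22 and 7.60 in wild type and 4.86, 4.97 and 6.35 in Pax6-/-. The genotypes did not overlap, and only the third Pax6-/- embryo was above background. The probe thus passed the detection filter through its wild-type readings, and its difference is taken against a group mostly at background. The difference was -1.72 ± 0.52 (SE), with a 95% interval of -2.98 to -0.45, and an adjusted limma p of 0.379. Its unadjusted limma p of 0.0159 became 0.0545 without wild-type embryo 3, 0.0530 without Pax6-/- embryo 1 and 0.0519 without Pax6-/- embryo 2.

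Clcn7, the lysosomal exchanger whose loss causes dense bone, read 5.85, 5.61 and 5.11 in wild type and 5.85, 7.13 and 6.97 in Pax6-/-. The first embryo of each genotype gave almost the same value, so the separation rests on the other pair of Pax6-/- embryos, and the third wild-type embryo was not above background. In the deposited signals the genotypes overlapped, with 129 in the first wild-type embryo and 98.4 in the first Pax6-/- embryo. The difference was 1.12 ± 0.43 (SE), with a 95% interval of 0.08 to 2.17 and an adjusted limma p of 0.521. Its unadjusted limma p of 0.0392 stayed under 0.05 only without Pax6-/- embryo 1, of the 6 embryos left out in turn, and without Pax6-/- embryo 2 the Clcn7 difference was 0.89 with an unadjusted p of 0.117. The 3 kept probes of Clcn3, another endosomal exchanger, differed by 0.74, -0.37 and -0.95, and did not share a direction. The Clcn4 probe differed by -0.67 ± 0.57, a value set by the third wild-type embryo, which read 7.01 where the other 5 arrays read 4.96 to 5.27. No chloride probe was above background on all 6 arrays.

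**Figure D3:**
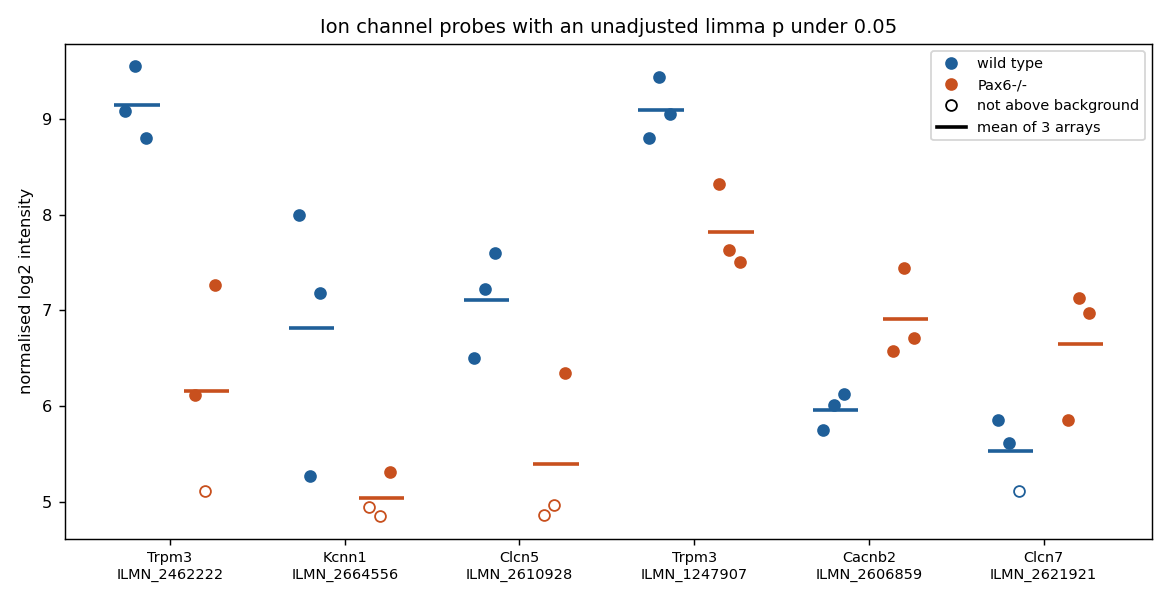
Normalised log2 intensity on each array (points) and genotype mean for the 6 channel probes with an unadjusted limma p under 0.05. The 2 Trpm3 probes, Clcn5 and Kcnn1 have lower Pax6-/- means, Cacnb2 and Clcn7 higher ones, and the Kcnn1 points of the genotypes overlap.

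Potassium channels made up 28 of the 62 probes, the regulator Kcnrg left aside. The calcium-activated channel Kcnn1, a small-conductance channel opened by calmodulin, was the one that reached an unadjusted limma p under 0.05. It read 7.99, 5.26 and 7.18 in wild type and 4.95, 4.85 and 5.30 in Pax6-/-. The second wild-type embryo lay below the third Pax6-/- embryo, so the genotypes overlapped, and only that Pax6-/- embryo was above background. Kcnn1 too passed the filter through its wild-type readings, and its Pax6-/- group was mostly at background. The difference was -1.78 ± 0.70 (SE), with a 95% interval of -3.50 to -0.06 and an adjusted limma p of 0.540. Without wild-type embryo 2 the Kcnn1 difference was -2.55, and without wild-type embryo 1 it was -1.19. Its unadjusted limma p of 0.0446 stayed under 0.05 only in the first of these, of the 6 embryos left out in turn. Another Kcnn1 probe was above background on 1 array and was not kept. The related Kcnn2 had 2 probes with differences of 0.05 and -0.26.

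Kcne1, an accessory subunit that slows the gating of a heart and inner ear potassium channel, showed a similar spread. It read 6.79, 7.55 and 5.98 in wild type and 4.82, 4.78 and 6.46 in Pax6-/-. Only the third Pax6-/- embryo was above background, and it lay above the third wild-type embryo. This probe also passed the filter through its wild-type readings. The difference of -1.42 ± 0.62 (SE) had an adjusted limma p of 0.596. Other Kcne1 probes, ILMN_2757772 and ILMN_2759208, were each above background on 1 array and were not kept. The other kept accessory probes, Kcnab2, Kcne4 and Kcnip1, had differences of 0.52, 0.06 and -0.32.

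The voltage-gated alpha subunits gave differences between -0.60 and 0.76 with a median of 0.14, and 0 of their 16 probes had an unadjusted limma p under 0.05. Kcnh6, a relative of the ether-à-go-go channel, had the steadiest bright probe of the set. ILMN_1239503 read 11.33, 11.05 and 10.97 in wild type and 11.12, 10.84 and 11.04 in Pax6-/-. The genotypes overlapped throughout, and the difference was -0.12 ± 0.24 (SE), with a 95% interval of -0.70 to 0.47. A second Kcnh6 probe, ILMN_2534475, read 5.36 to 5.85 over the 6 arrays, near the background level, with a difference of 0.07 ± 0.25.

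Kcna6, a delayed rectifier of the Shaker family, had 4 kept probes that all gave a positive difference. ILMN_2596386 read 8.55, 7.13 and 9.24 in wild type and 8.25, 9.46 and 9.51 in Pax6-/-, a difference of 0.76 ± 0.64 (SE) that was 0.17 without wild-type embryo 2 and 1.23 without wild-type embryo 3. ILMN_2760927 read 8.04, 6.36 and 9.38 in wild type and 6.24, 9.31 and 9.16 in Pax6-/-, a difference of 0.31 ± 1.10 (SE). Both probes were lowest of the wild-type arrays in the second embryo and lowest of the Pax6-/- arrays in the first, and the genotypes overlapped in both. The other pair gave 0.62 ± 0.65 (ILMN_3162585) and 0.16 ± 0.25 (ILMN_3163078). The 95% interval for ILMN_2760927 ran from -2.39 to 3.01, so neither a rise nor a fall of several-fold was excluded with that probe.

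Kcnq3, a subunit of the slow M current, read 6.09, 7.41 and 8.20 in wild type and 7.08, 7.80 and 8.31 in Pax6-/- with ILMN_1229344. The arrays of the genotypes interleaved, and the difference was 0.50 ± 0.62 (SE), against 0.11 ± 0.22 for ILMN_2622771. Kcnd3, the A-type channel, stood out through one array: the second wild-type embryo read 7.30, and the other 5 arrays read 5.13 to 5.37. The remaining voltage-gated probes (Kcna3, Kcna10, Kcnc2, Kcnf1, Kcng4 and Kcnh7) had differences between -0.17 and 0.46.

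The inward rectifiers, which hold the resting potential near that of potassium, gave 3 kept probes of 26. Kcnj6, which G proteins open, read 7.34, 8.79 and 7.56 in wild type and 7.79, 7.57 and 7.50 in Pax6-/- with ILMN_1228413. The second wild-type embryo was the highest and the other 5 arrays lay within 0.5 log2 units of each other, giving a difference of -0.28 ± 0.43 (SE). The other kept Kcnj6 probe, ILMN_3162725, differed by 0.02 ± 0.23. Kcnj12, a strong inward rectifier of muscle and heart, read 8.47, 7.40 and 7.08 in wild type and 7.41, 7.64 and 6.55 in Pax6-/-. The genotypes overlapped, with a difference of -0.45 ± 0.49 that ran from -0.039 without wild-type embryo 1 to -0.74 without wild-type embryo 3. Of the two-pore leak channels, Kcnk1 read 6.89, 7.00 and 7.75 in wild type and 8.10, 8.14 and 5.99 in Pax6-/-. Its 2 highest and its lowest reading all came from Pax6-/- embryos, and the difference was 0.20 ± 0.65. Kcnk5 differed by 0.04 ± 0.85.

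Calcium channel subunits gave 8 kept probes. Cacnb2, the cytoplasmic beta subunit that brings the alpha1 pore to the membrane, read 5.74, 6.01 and 6.13 in wild type and 6.58, 7.44 and 6.71 in Pax6-/-. Every Pax6-/- reading lay above every wild-type reading, and all 6 were above background. The means were 5.96 ± 0.20 (SD, n = 3) and 6.91 ± 0.46 (SD, n = 3). The difference was 0.95 ± 0.32 (SE), with a 95% interval of 0.18 to 1.73 and an adjusted limma p of 0.442. The array has 4 other Cacnb2 probes, each above background on at most 1 array of a genotype, so this value rests on a single probe. Its unadjusted limma p of 0.0239 became 0.0690 without wild-type embryo 1, 0.0514 without wild-type embryo 2 and 0.0650 without Pax6-/- embryo 2.

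Cacna2d2, an alpha2delta subunit that raises the number of calcium channels at the surface, read 8.52, 6.34 and 7.37 in wild type and 8.51, 8.01 and 8.71 in Pax6-/-. The Pax6-/- embryos were close together, and the first wild-type embryo lay among them. The difference was 1.00 ± 0.58 (SE), with a 95% interval of -0.42 to 2.42. Without wild-type embryo 1 the Cacna2d2 difference was 1.55, with an unadjusted limma p of 0.0178, and without wild-type embryo 2 it was 0.46. Cacna2d3 differed by 0.50 ± 0.32, and the 2 kept probes of Cacna2d1 by 0.59 ± 0.82 and -1.23 ± 0.66, opposite in sign. The alpha1 genes were Cacna1d, an L-type pore (0.63 ± 0.54), and Cacna1i, a T-type pore (0.08 ± 0.22). Cacna1i had the least spread of the 62 probes over the 6 arrays (SD 0.0896), at a level near background. The gamma subunit Cacng7 differed by -0.13.

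Of the sodium channel probes, 0 had an unadjusted limma p under 0.05. Scn2a, the neuronal alpha subunit, differed by 0.18 ± 0.24 (SE). The beta subunit genes Scn2b, Scn3b and Scn4b had differences between -0.26 and 0.39, but the 95% interval of the Scn2b probe ILMN_2451529 ran from -1.47 to 2.19. Scn2b and Scn4b are neighbours on chromosome 9 with 0 protein-coding genes between them. The Trpc channels, which open after receptor signalling, gave differences of 0.15 and -0.41 for Trpc1. Trpc6 differed by 0.17 ± 0.21, with no overlap between the genotypes at readings of 5.19 to 5.49. Its deposited signals did overlap, at 81.2, 79.3 and 70.3 in wild type and 82.9, 81.2 and 75.9 in Pax6-/-. The 5 probes of the genes that are not channel subunits differed by between -0.80 and 0.99, and both Scnm1 and Trpc4ap had probes of opposite sign.

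**Figure D4:**
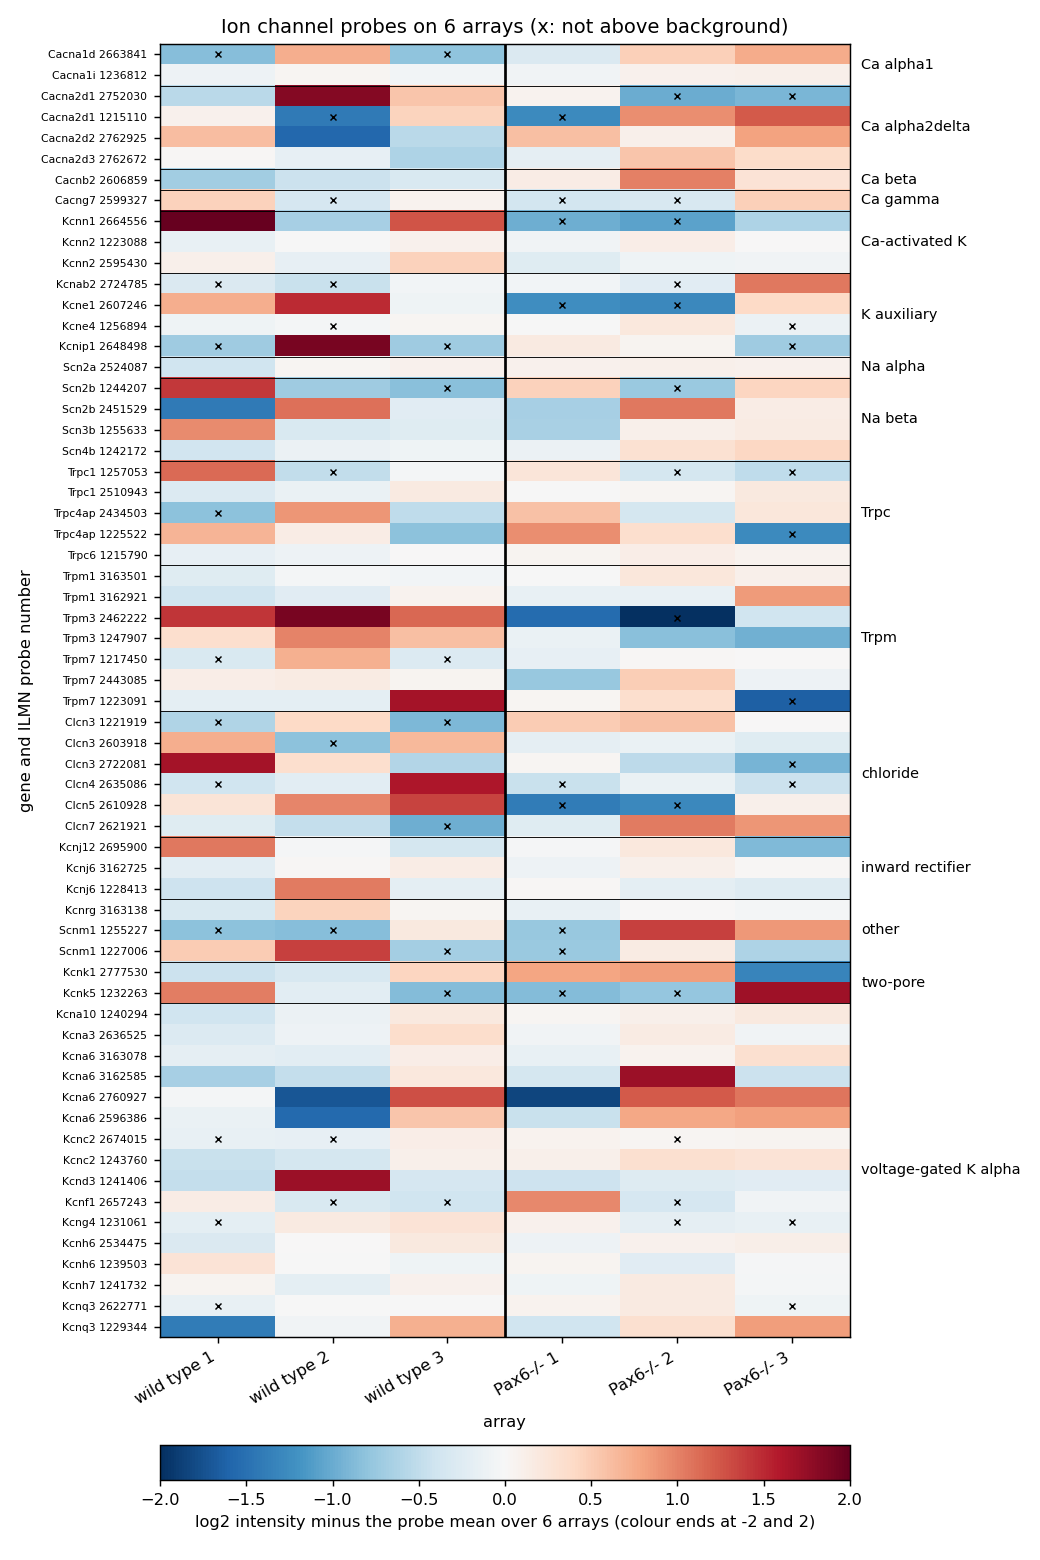
Log2 intensity of the 62 channel probes (rows) on the 6 arrays (columns), as a colour for the distance from each probe's own mean over the arrays, with a cross where a reading was not above background. The Trpm3 probes lie above their mean in the wild-type columns and below it in the Pax6-/- columns, and most other rows vary as much within a genotype as between genotypes.

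Over the whole set, 0 of the 62 probes passed an adjusted limma p of 0.05, where 0.0620% of the 17751 tested probes did. An unadjusted limma p under 0.05 in either direction was reached by 6 probes, where 8.96% of all tested probes reached it. Of these, 4 probes (6.45%) were lower in Pax6-/-, against 5.04% of all tested probes, and 2 (3.23%) were higher, against 3.92%. Among the lower ones, Clcn5 and Kcnn1 passed the filter through their wild-type readings. The genotypes did not overlap for 3 probes lower in Pax6-/- (4.84%, against 7.11% of all tested) and for 4 higher (6.45%, against 7.88%). A fitted difference of at least 2-fold was found for 6 lower probes (9.68%), where 8.57% of all tested probes had one, and for 1 higher probe (1.61%), where 7.88% did. The median difference was 0.06 over the 62 probes and 0.05 over all tested probes, and the quartiles were -0.27 and 0.37 against -0.39 and 0.38. Without the 2 Trpm3 probes, 2 probes were lower and 2 higher at an unadjusted limma p under 0.05. Single embryos moved these counts: the lower count was 2 without Pax6-/- embryo 1 or 2, and the higher count was 0 without Pax6-/- embryo 2 and 1 without wild-type embryo 1 or Pax6-/- embryo 3.

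**Figure D5:**
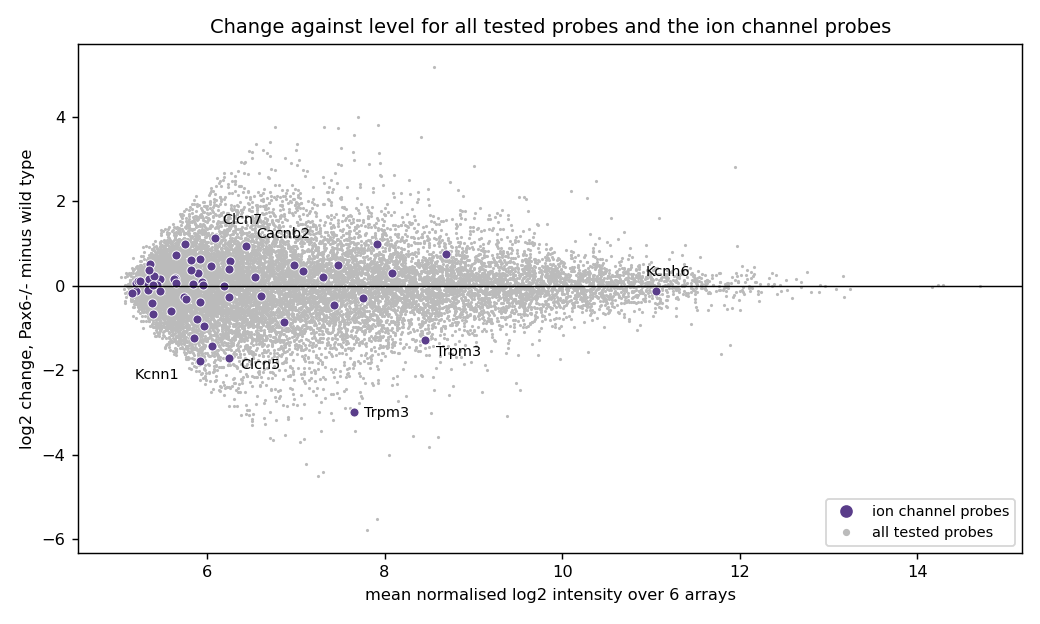
Log2 difference (Pax6-/- minus wild type) against the mean normalised log2 intensity over the 6 arrays, for all 17751 tested probes and for the 62 channel probes. The channel probes lie at a median level of 5.90, and the 2 Trpm3 probes at -1.28 and -2.99 are among the lowest of them.

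The precision of these differences is limited by the spread between arrays of a genotype, in which the embryo, the dissection, the amplification and the hybridisation cannot be told apart. The bead-level standard error of a channel probe was at most 7.16% of its signal on any array. The median SD within a genotype was 0.54 log2 units. That SD was 0.68 for the 24 probes with a mean level of 6 or more and 0.44 for the 38 dimmer ones, and 0.60 over all tested probes. The 95% interval of a difference reached 1.02 log2 units to either side in the median probe, before any adjustment over probes, so a 2-fold difference in such a probe was not detectable with these arrays. For 22 probes the 6 arrays spanned under 1 log2 unit, and 18 of those had a mean under 6, where readings are held close to background. For 24 probes the arrays spanned over 2 log2 units. In 9 probes 1 array exceeded all others by over 1 log2 unit, 7 times a wild-type and 2 times a Pax6-/- array, among them Kcnd3, Clcn4 and Kcnip1.

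Probes of a gene did not always share a sign. Of 15 genes with several kept probes, 7 had differences of the same sign in all of them and 8 of mixed sign. No difference in the genes of mixed sign exceeded 2 of its standard errors, and the share of such genes over the array was not counted. The genes of the same sign were Trpm3 and Trpm7 (negative) and Kcna6, Kcnc2, Kcnq3, Scn2b and Trpm1 (positive). In Trpm3 alone among these did every kept probe have an unadjusted limma p under 0.05.

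Other channel, connexin and sodium pump genes give the setting in which the 62 probes stand. This list holds 55 kept probes of 44 genes, out of 241 probes of 143 genes on the array. It had 0 probes with an adjusted limma p under 0.05, and at an unadjusted p under 0.05 there were 5 lower (9.09%, against 5.04% of all tested probes) and 1 higher (1.82%, against 3.92%). Mip, the water channel of lens fibres and also one of the lens markers above, read 7.84, 9.94 and 9.39 in wild type and 6.83, 6.63 and 5.02 in Pax6-/-, a difference of -2.90 ± 0.73 (SE, adjusted limma p 0.291). Lrrc8b, a subunit of the volume-regulated anion channel, differed by -1.91 ± 0.32 without overlap (adjusted limma p 0.145). The sodium pump subunit Atp1b3 differed by -0.90 ± 0.22 (adjusted limma p 0.283), and Atp1b1 by -0.30 ± 1.32. Among the connexins Gja1 differed by -0.58 ± 0.23 (adjusted limma p 0.544), and the kept Gjc1 probes by -0.46, 0.16 and -0.10. Neither Atp1b3 nor Gja1 overlapped between genotypes. The glutamate receptor subunit Gria3 read 6.94, 4.92 and 4.95 in wild type and 9.53, 9.05 and 9.45 in Pax6-/- with ILMN_1251634. Only 1 of the 3 wild-type arrays was above background, so the fitted difference of 3.74 ± 0.60 (adjusted limma p 0.128) is taken against a group mostly at background, and other Gria3 probes differed by 1.78 and 0.16.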

How the data were processed

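RNA from laser-dissected tissue was amplified, biotin-labelled and hybridised to Illumina bead arrays, 1 per embryo. The deposited intensity table gives per probe and array the authors' mean signal without normalisation, the detection p-value, the bead number and the bead standard error (the other columns), per the file headers; GenomeStudio is named in the submitters' processing notes, with no version. The deposited processed intensity table was used only as an alternative, after adding a constant to make it positive; its normalisation is unknown. Probes were named from the platform annotation, and all 286 channel probes matched RefSeq (GRCm38.p6) by gene ID. With limma 3.58.1 in R 4.3.3, signals were corrected by neqc (normexp from the detection p-values, offset 16, quantile, log2), filtered (detection p under 0.05 on at least 3 of 6 arrays, 17751 probes), fitted for genotype with lmFit and eBayes and adjusted by Benjamini-Hochberg over those probes. The fit has 4 residual degrees of freedom, and an exact permutation test of 3 against 3 arrays cannot give a two-sided p below 0.1. The script was tested on simulated data.

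The members and gene lists were chosen with earlier results of these data known. Values on every array are given for channel probes with an unadjusted limma p under 0.05, for the 10 with the highest mean level, and for other kept probes of those genes by range or difference. The arrays given for Kcne1, Kcnd3, Clcn4, Trpm1, Trpc6 and the Trpm3 probes that were not kept were chosen after their values were seen. Levels of different probes depend on the probe and are not compared. Replicates are separate embryos. The alternatives were other background corrections, normalisations, filters and variance models, the deposited processed values, 1 probe per gene, a replicate block and leaving out each array.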

Additional observations from a re-analysis of the deposited data

How the results depend on the processing

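The count of channel probes with an adjusted limma p under 0.05 was 0 under every alternative run. Over all probes it was 11 and became 4 with cyclic loess, 7 with median scaling, 2 without background correction, 3 with an offset of 50, 31 when all arrays of a genotype had to detect a probe, 3 with an intensity trend and robust prior, and 0 to 2 without single replicates. The Trpm3 difference kept its sign and an unadjusted limma p under 0.05 in 16 of 16 alternatives for ILMN_2462222 (-3.54 to -2.41, adjusted p 0.130 to 0.481) and 17 of 17 for ILMN_1247907 (-1.68 to -1.11, adjusted p 0.194 to 0.576). That p held in 14 of 17 for Clcn5, 12 of 17 for Cacnb2, 8 of 17 for Clcn7 and 7 of 16 for Kcnn1. Channel probes higher at an unadjusted p under 0.05 (2) became 1 with cyclic loess, 0 with median scaling or the intensity trend, 4 with no filter and 0 to 3 without single replicates; the lower count (4) was 2 to 5 there. Channel probes without overlap, lower (3) and higher (4), became 7 and 1 with median scaling and 17 and 21 with no filter, the higher count was 2 at a detection p under 0.01, and without single replicates they were 4 to 6 and 4 to 15, since fewer arrays overlap less. Median scaling moved the median of all probes from 0.05 to -0.21 and that of the channel probes from 0.06 to -0.14. With cyclic loess these medians were -0.0061 and -0.015, so their order depends on the scaling. With median scaling all probes at an unadjusted limma p under 0.05 split 1535 lower and 338 higher, against 895 and 695 in the main fit. The channel median was -0.028 to 0.105 without single replicates.

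Signs under the alternatives were followed only for 19 channel probes, those of the genes chosen by p or by level as above. They reversed only for differences smaller than their standard error, and the cause was not tested. With cyclic loess these were Kcnh6 ILMN_2534475 (-0.013) and Kcnj6 ILMN_3162725 (-0.055). With median scaling they were Kcna6 ILMN_3163078 (-0.079) and ILMN_2760927 (-0.026), the same Kcnh6 (-0.15) and Kcnj6 (-0.13) probes and Kcnk1 (-0.19). Without single replicates the ranges were -0.56 to 0.17 for Kcnj6 ILMN_1228413, -0.076 to 0.10 for ILMN_3162725, -0.072 to 0.98 for Kcnq3 ILMN_1229344, -0.062 to 0.18 for Kcnh6 ILMN_2534475, -0.47 to 1.31 for Kcna6 ILMN_2760927, -0.083 to 0.98 for ILMN_3162585 and -0.17 to 0.91 for Kcnk1.

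With the replicate block, 0 probes of any gene passed the adjusted p and 4 channel probes were lower and 1 higher at an unadjusted p under 0.05. Arrays with the same replicate number did not deviate together over all tested probes (correlations of 0.000150, -0.00228 and -0.00952). Whether the numbers pair the embryos in another way was not tested. For dim probes the signal over background limits what could be detected.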
